A study of Drosophila melanogaster with 2 samples.

Results

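Peaks of Escargot binding at divergent protein-coding promoters were examined in Drosophila embryos. A peak belonged to this class when its summit, the position of highest signal, lay within 500 bp of a start site of a minus-strand gene and of a plus-strand gene. The minus-strand start had to lie at the lower coordinate, at most 1000 bp from the plus-strand start, so that the pair is transcribed away from a shared stretch of DNA. By this rule 642 of 4397 peaks on the 7 chromosome arms qualified, out of 4419 peaks in the whole list, and the 1000 bp limit removed 0 of the peaks that passed the 500 bp limit. They are compared with 1102 other promoter peaks, which lie within 500 bp of a protein-coding start without meeting the rule, and with 1999 divergent promoters that have no such peak.

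Bound DNA was recovered by chromatin immunoprecipitation with an antibody against green fluorescent protein (GFP) and sequenced (ChIP-seq). The material was whole embryos, 0 to 24 h old, of the strain esg-GFP, which carries an insertion targeting esg and expresses an esg-eGFP fusion protein. All samples form 1 group, with 2 biological replicates, sonicated to fragments of 200 to 800 bp and set against a control alignment. The embryos mix every cell type and all of embryogenesis, and the labels used here do not say which cells carry the fusion protein or whether untagged esg is also present. Read depth is unknown, and peaks are not replicates of a condition, so p-values and intervals over peaks describe these libraries and cover counting error only.

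Divergent promoters, in which neighbouring genes on opposite strands start close together, are common in the compact Drosophila genome and often serve genes that most cells use. Such promoters typically have an open stretch of DNA between the start sites and often carry the DNA replication-related element (DRE), bound by DREF, or Motif 1, bound by M1BP. Escargot, a member of the Snail family with zinc fingers, is known as a repressor that recognises E-box sequences and helps to maintain stem cells and diploid imaginal cells.

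The intervals between the starts of 4 of the strongest pairs are printed to show where the summit falls in the DNA that the genes share. Each line runs on the plus strand from the minus-strand start to the plus-strand start in the RefSeq assembly of dm6, and capitals mark the 21 bp centred on the summit.
CG7601/CIA30, chr3R:29736745-29736965: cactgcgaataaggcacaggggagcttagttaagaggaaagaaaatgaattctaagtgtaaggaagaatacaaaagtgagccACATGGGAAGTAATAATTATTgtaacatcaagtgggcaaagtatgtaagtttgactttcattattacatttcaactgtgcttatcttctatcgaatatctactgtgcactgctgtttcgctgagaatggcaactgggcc
Tcs5/CHMP2B, chr3L:5139395-5139619: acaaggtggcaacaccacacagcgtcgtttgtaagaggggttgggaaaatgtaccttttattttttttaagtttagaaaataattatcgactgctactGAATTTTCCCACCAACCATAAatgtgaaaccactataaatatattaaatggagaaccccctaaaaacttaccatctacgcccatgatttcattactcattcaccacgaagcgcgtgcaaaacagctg
Art3/mRpS10, chr3R:15229408-15229665: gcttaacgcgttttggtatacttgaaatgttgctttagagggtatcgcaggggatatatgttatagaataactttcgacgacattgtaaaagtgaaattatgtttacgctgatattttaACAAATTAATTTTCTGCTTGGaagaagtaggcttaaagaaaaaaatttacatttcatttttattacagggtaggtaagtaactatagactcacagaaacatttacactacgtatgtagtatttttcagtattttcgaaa
Atat/Shc, chr3L:9426758-9427010: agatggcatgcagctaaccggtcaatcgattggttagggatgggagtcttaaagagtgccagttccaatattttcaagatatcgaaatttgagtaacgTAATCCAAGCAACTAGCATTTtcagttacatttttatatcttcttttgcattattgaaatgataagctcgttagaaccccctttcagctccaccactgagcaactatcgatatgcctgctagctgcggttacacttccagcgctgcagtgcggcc
In these 4 intervals the summit lay at positions 93 of 221, 109 of 225, 130 of 258 and 109 of 253, near the middle each time. These 4 do not stand for all of the strongest members. At mRpS23/CenG1A the summit lay 387 bp from the mRpS23 start and 105 bp from the CenG1A start. At Chro/Ssl1, mRpL23/CG9004 and Fbw5/CG9147 it lay outside the interval, inside a gene, as described below. The Atat/Shc interval also holds TATCGATA, the DRE, towards its Shc end, where it stands in lower case. CIA30 is known as an assembly factor of respiratory complex I, CHMP2B as a subunit of the membrane-remodelling ESCRT-III complex, Atat as an alpha-tubulin acetylase and Shc as an adaptor of receptor tyrosine kinases.

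A further pair of intervals is printed because they hold promoter motifs of divergent genes, marked in capitals. In the first the capitals are the DRE and in the second the core of Motif 1, GGTCACAC, which reads on the minus strand.
fws/Lamtor3, chr2L:17481029-17481231: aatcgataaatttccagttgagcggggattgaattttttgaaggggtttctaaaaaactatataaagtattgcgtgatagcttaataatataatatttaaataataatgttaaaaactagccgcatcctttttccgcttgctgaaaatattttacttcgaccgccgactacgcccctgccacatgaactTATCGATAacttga
Tsf2/CG34242, chr3L:12533724-12533996: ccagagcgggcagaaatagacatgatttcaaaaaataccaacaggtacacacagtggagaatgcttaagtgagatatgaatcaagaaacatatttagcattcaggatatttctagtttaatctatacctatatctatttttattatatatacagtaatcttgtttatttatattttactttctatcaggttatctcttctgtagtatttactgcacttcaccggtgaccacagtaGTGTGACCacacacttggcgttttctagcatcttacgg
The DRE of fws/Lamtor3 starts at position 190 of 203, beside the Lamtor3 start, whereas the summit lies at position 97. The 21 bp around that summit hold only A and T (0% GC). The Motif 1 core of Tsf2/CG34242 starts at position 236 of 273 with the summit at position 130. In both, the promoter motif is beside a start and the summit is in the AT-rich middle. The signal values were 841.2 for fws/Lamtor3 (448.7 in replicate 1 and 396.5 in replicate 2) and 576.7 for Tsf2/CG34242 (307.0 and 270.2). Fws is known as a subunit of the Golgi COG complex and Lamtor3 as part of the Ragulator complex on lysosomes.

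The signal value that the authors deposited with each peak, in a unit that is not stated, describes the strength of the peaks here. The strongest member was CG7601/CIA30, ranked 4 in the whole list, with 1852.9 on the joint list, 1004.8 in replicate 1 and 883.3 in replicate 2. Next were Tcs5/CHMP2B with 1670.8 (888.7 and 792.9), Chro/Ssl1 with 1444.0 (763.7 and 682.9) and Art3/mRpS10 with 1419.2 (728.6 and 695.5). Tcs5 acts in the threonyl-carbamoyl modification of transfer RNA, Chro (Chromator) is a chromosomal protein, Ssl1 is a subunit of the general transcription factor TFIIH, and Art3 is an arginine methyltransferase. The peaks at mRpS23/CenG1A (1404.7, with 703.4 and 704.3), CG5611/Mtl (1397.2, with 768.7 and 628.4) and mRpL23/CG9004 (1270.5, with 654.8 and 623.8) followed. Of the genes named so far, mRpS10, mRpS23 and mRpL23 encode proteins of the mitochondrial ribosome. The list of 10 ends with Atat/Shc (1206.9, with 615.5 and 598.6), CG13390/CG17294 (1134.8, with 637.1 and 502.2) and Fbw5/CG9147 (1129.5, with 596.6 and 544.6). Replicate 1 was the higher in 9 of these 10 and in 17 of the 20 strongest members. The lists of the replicates and the joint list were called separately, so their signal values are not on a shared scale.

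**Figure D1:**
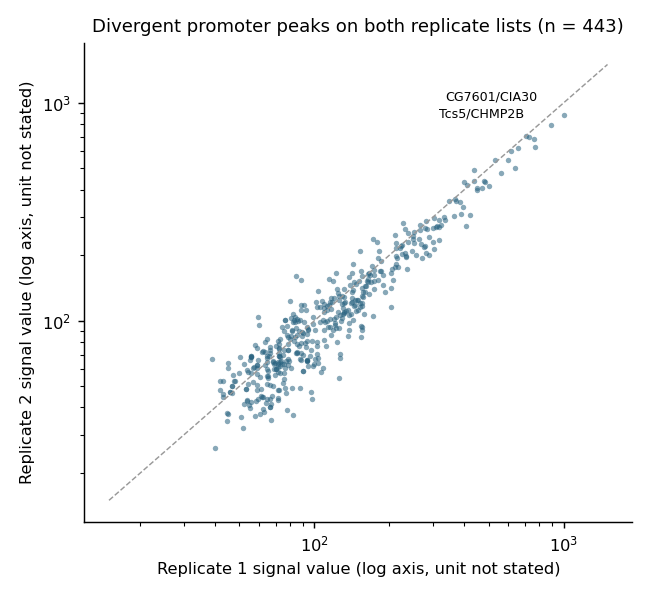
Signal value of the 443 divergent promoter peaks found on the thresholded lists of both replicates, replicate 1 on the x axis and replicate 2 on the y axis, both on log scales in the unit deposited. Each point is a peak; the points follow a band along the dashed line of equal values (Pearson's r of log2 values 0.94 over 443 peaks), with CG7601/CIA30 at its upper end.

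Divergent promoter peaks were found again in the replicates more often than other promoter peaks were. Of the 642, 443 overlapped a thresholded peak of both replicates (69.0%, exact 95% interval 65.3 to 72.6), against 677 of 1102 other promoter peaks (61.4%, 58.5 to 64.3), while over all peaks the share was 57.5%. The difference of 7.57 percentage points had an adjusted p of 0.00354 (Fisher's exact test, two-sided, Benjamini-Hochberg over 18 tests). With the other joint list the difference was 4.6 points (76.6% against 72%) and missed the threshold (adjusted p = 0.072, Fisher's exact test). With summits within 250 bp of both starts it was 14.1 points (75% against 60.9%, adjusted p = 9.82e-06, Fisher's exact test). A further 135 members were on 1 replicate list only and 64 on neither, with 498 on the list of replicate 1 and 523 on that of replicate 2. In the longer ranked lists, 637 members (99.2%) had a partner in both replicates. Across the 443 shared members the replicate signals had a Pearson's r of 0.94 on the log2 scale and a Spearman's rho of 0.91, a description over peaks that share the same 2 libraries.

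The members were also stronger. Their median signal value was 140.7 (quartiles 90.6 and 248.1, range 3.8 to 1852.9), against 118.4 (80.9 and 218.2) at other promoter peaks and 100.3 at 2653 peaks over 500 bp from any protein-coding start. The strongest class of the list, the 20% of all peaks with the highest signal values, held 208 members (32.4%, 28.8 to 36.2), against 295 other promoter peaks (26.8%, 24.2 to 29.5). This difference of 5.63 points had an adjusted p of 0.0246 (Fisher's exact test, two-sided, over the same 18 tests). It rested on the joint list: without replicate 1 it was 0.263 points (28.4% against 28.1%, adjusted p = 0.951), and without replicate 2 it was 2.91 points (30.7% against 27.8%, adjusted p = 0.316), by the same exact test. With summits within 250 bp of both starts the difference was 10.4 points (38.2% against 27.9%, adjusted p = 0.00119, Fisher's exact test). It missed the threshold with the other joint list (4.8 points), with gene 5' ends as starts (5.42 points) and against other promoter peaks upstream of their start only (4.28 points).

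Signal and replicate overlap moved together. When the list was divided into 5 classes of equal size, from the strongest to the weakest, both replicate lists held 100%, 95.8%, 59.7%, 13.5% and 18.1% of members, beside 99.7%, 94.2%, 68.4%, 14.9% and 12.3% of other promoter peaks. In classes 3 and 4 the members had the lower share. In the upper 50% of the list by signal the difference in overlap was 0.403 points (94.9% against 94.5%, adjusted p = 0.938, Fisher's exact test). With the strongest 20% of the list left out it was 6.69 points (54.1% against 47.5%, adjusted p = 0.0472, Fisher's exact test). Members made up 23.6% of the strongest class, then 16.3%, 13.5%, 10.1% and 9.44% of the following classes.

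**Figure D2:**
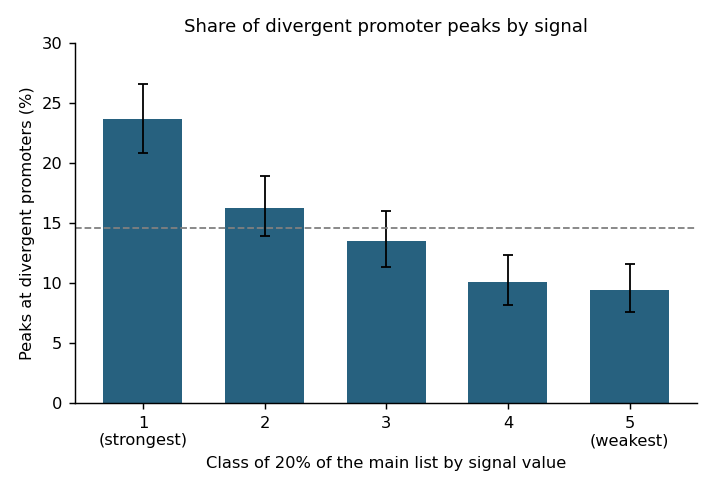
Share of peaks that are at divergent promoters (y axis, percent) in 5 classes of equal size by signal value, from the strongest to the weakest (x axis), with exact 95% binomial intervals; the dashed line is the share in the whole list. The share is 23.6% in the strongest class and 9.44% in the weakest.

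Most summits lay in the DNA between the starts. In 540 of 642 members (84.1%, 81.1 to 86.9) the summit was between them, and of the other 102, 57 were inside the minus-strand gene and 45 inside the plus-strand gene. The rule itself favours this, since a summit must be close to both starts. Neither gene was preferred, with 318 summits nearer to the minus-strand start, 321 nearer to the plus-strand start and 3 at equal distance. The nearest start was a median of 99 bp downstream of the summit (quartiles 52 and 136). Summits 50 to 150 bp upstream of the nearest start made up 363 members (56.5%), against 264 other promoter peaks (24.0%). Of those 1102 other promoter peaks, 939 lay upstream at all. Over all 1102, with downstream positions counted as negative, the median was 175 bp upstream. The rule favours this contrast as well. A member must be close to both starts and is measured to the nearer, whereas other promoter peaks need only be close to any start. How far the contrast goes beyond the rule was not tested. The annotated base at the summit was intergenic in 449 members (69.9%), in a 5' UTR in 110 (17.1%), in an intron in 68 (10.6%), in another exon in 10, in coding sequence in 3 and in a 3' UTR in 2.

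Chro/Ssl1 and mRpL23/CG9004 show the minority arrangement. Their starts are 105 and 50 bp apart, and the summits lay 86 bp inside Chro and 68 bp inside mRpL23, both in a 5' UTR. At Fbw5/CG9147 the starts described for the peak were 134 bp apart, and the summit lay 14 bp inside CG9147. The closest annotated starts of this pair, which the counts over pairs use, are 44 bp apart.

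**Figure D3:**
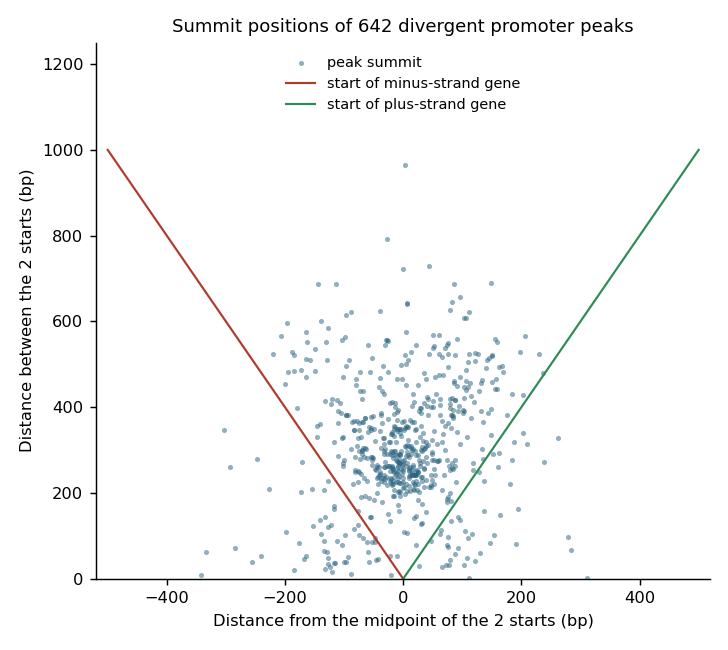
Position of each of the 642 summits relative to the midpoint between the starts (x axis, bp, the minus-strand gene to the left) against the distance between the starts (y axis, bp). The lines mark the starts; 540 points fall between them, and the others lie mostly where the starts are under 200 bp apart.

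Spacing of the starts went with the chance of a peak. Across the genome, 2667 divergent pairs of genes had starts at most 1000 bp apart. Of these, 668 (25.05%, 23.4 to 26.7) had a member summit. The genes need not be direct neighbours, and the start of another gene can lie between those of a pair. Pairs with a peak had a median spacing of 278 bp, against 314 bp in the 1999 pairs without. Some pairs share a gene or a start, and the repeated histone gene pairs on 2L are counted one by one. The intervals over pairs do not allow for this. Because the window allowed by the rule shrinks as spacing grows, a fixed window of 150 bp either side of the midpoint was used as well. In that window 60 of 429 pairs with starts 1 to 100 bp apart had a summit (14.0%, 10.9 to 17.6), as had 56 of 357 pairs at 101 to 200 bp (15.7%, 12.1 to 19.9). The share was 38.4% (34.3 to 42.6) of 542 pairs at 201 to 300 bp and 36.3% (31.5 to 41.2) of 400 pairs at 301 to 400 bp. It was 22.5% (17.6 to 28.0) of 267 pairs at 401 to 500 bp and 8.19% (6.23 to 10.5) of 672 pairs at 501 to 1000 bp. The intervals of the 201 to 400 bp classes did not overlap those of the others. A fixed window holds both starts of a closely spaced pair and neither start of a widely spaced one, so it does not measure the same feature at each spacing.

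Within the members, signal was highest at short and middle spacings. The median signal value was 146.8, 164.6 and 161.6 for starts 1 to 100, 101 to 200 and 201 to 300 bp apart, and 132.9, 119.8 and 102.7 for 301 to 400, 401 to 500 and 501 to 1000 bp. The interquartile ranges of neighbouring classes overlapped throughout. Below 100 bp, 3 of 60 summits (5.0%) were between the starts, whereas all 86 and all 74 were in the 2 widest classes. For starts over 500 bp apart the rule fixes this, since a summit outside them is over 500 bp from the farther start. At 401 to 500 bp the rule leaves under 100 bp of room on either side. From 101 bp on, the median distance to the nearest start grew with spacing, from 47 bp to 95.5, 120, 139 and 197.5 bp. Part of this rise follows from geometry, because a wider interval has more room far from both starts.

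**Figure D4:**
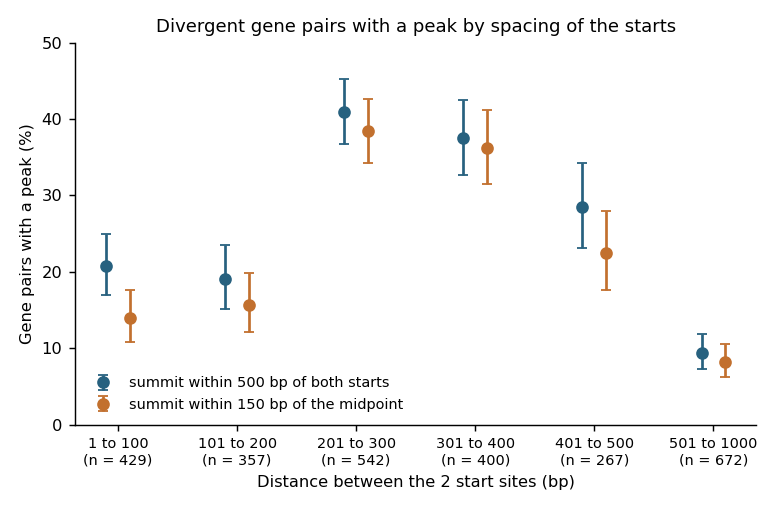
Share of divergent gene pairs with a summit (y axis, percent) by distance between the starts (x axis, bp), within 500 bp of both starts and within 150 bp of the midpoint, with exact 95% intervals and the number of pairs in each class. Both shares are highest at 201 to 400 bp; in the fixed window they are 38.4% and 36.3% there and at most 22.5% elsewhere.

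Members at the edges of the rule lay outside the quartiles of the members' signal values, 1 above and 2 below. The widest member was CG14968/ZnT63C, with its summit 494 bp from the farther start and a signal value of 476.7, and the nearest peak outside was lin-52/CG15771 on the X chromosome, at 512 bp with 517.9. The closest starts were those of Atg6, an autophagy gene, and Pisd, a phosphatidylserine decarboxylase, 1 bp apart. That peak had a signal value of 58.3 and was on neither replicate list. The widest spacing was 965 bp, at Nf-YA/Srg3 with a signal value of 63.8.

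Some gene pairs carried more than 1 peak. The 642 members described 613 pairs of genes, of which 29 had 2 members each and 0 had more. In 27 of these 29 the peaks overlapped each other. Over the 29, the summits were 199 bp apart at the closest, 201 bp in the median and 2573 bp at the most. Summits over 1000 bp apart cannot lie within 500 bp of the same start, so not all of the 29 are single promoters. The weaker peak had a median of 0.16 times the signal of the stronger, and 16 of the weaker peaks were among the 17 members with a signal value under 20. Overlapping peaks can stand for 1 bound site, so members are not all independent.

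A promoter summit was more common at genes in divergent pairs than elsewhere. A summit within 500 bp of a start was found for 16.1% of the 13968 protein-coding genes. This held for 1463 of the 5052 genes in divergent pairs (29.0%, 27.7 to 30.2), of which 1268 (25.1%) were at a member peak, and for 791 of 8916 other genes (8.87%, 8.29 to 9.48). Both genes of a pair count the same summit, and 237 genes were in more than 1 pair, so no test was made. A summit near a pair does not say which of its genes, if either, the protein acts on.

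Divergent promoters with a peak were spread unevenly over the chromosomes. The share of pairs with a peak was 29.5% on 3L, 29.1% on 3R, 26.1% on 2L and 21.2% on 2R, and 16.9% (13.3 to 20.9) on the X chromosome, where 68 of 403 pairs had one. Of the 891 peaks on the X, 69 (7.74%) were members, against 14.7% to 18.2% of the peaks on 2L, 2R, 3L and 3R. The X members had a median signal of 136.8, within the 122.9 to 150.3 of those arms. Chromosome 4 had 11 pairs and 0 with a peak, where a count of 0 in 11 allows a share of up to 28.5% (exact interval).

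Sequence around the summits differed from that of other promoter peaks. Windows of 100 bp either side of the summit were searched on both strands for 8 motifs. These were TATCGATA, which is the DRE, and GGTCACAC, which is the core of Motif 1. Further ones were the E-box CAGCTG, the E-box CAGGTG and the related hexamer ACAGTG. The last were TATAAA as in TATA boxes, the core GAGAG of GAGA elements, and the AT-only hexamer TTAAAA. None of the 8 contains another, though matches to several of them can share bases. Of these, 5 differed past an adjusted p of 0.05 in Fisher's exact test (two-sided, Benjamini-Hochberg over 18 tests). The DRE was in 49 members (7.63%), against 3.27% of other promoter peaks (adjusted exact p = 0.000218) and 2.09% of all peaks. TATAAA was in 48.8%, against 38.9% (adjusted exact p = 0.000218) and 40.2% of all peaks, and TTAAAA in 64.0%, against 53.8% (adjusted exact p = 0.000138) and 53.4% of all peaks.

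The other motifs that differed were less frequent at divergent promoters. GAGAG was in 12.5% of members, against 21.7% of other promoter peaks (adjusted p = 8.91e-06, Fisher's exact test) and 19.8% of all peaks. ACAGTG was in 14.5%, against 21.7% (adjusted exact p = 0.000487) and 20.2% of all peaks, but without replicate 2 its difference was -4.36 points with an adjusted p of 0.0901 by the same test. The Motif 1 core (2.65% against 1.36%, adjusted p = 0.0823), CAGCTG (9.81% against 7.17%, adjusted p = 0.0823) and CAGGTG (5.14% against 4.81%, adjusted p = 0.819) did not pass Fisher's exact test, and they were in 1.02%, 6.23% and 5.28% of all peaks. For CAGGTG, a sequence that Snail-family proteins are known to bind, the members' interval ran from 3.56% to 7.14%. The width of the window decided several calls. In windows of 150 bp either side, the Motif 1 core was in 9.97% of members, against 3.72% of other promoter peaks (adjusted exact p = 1.45e-06), and CAGCTG in 22.6%, against 14.9% (adjusted exact p = 0.00018). GAGAG was then in 18.8%, against 38.7% (adjusted exact p = 2.98e-17). In windows of 50 bp either side, the DRE was in 1.4%, against 1.18% (adjusted exact p = 0.747), and GAGAG in 5.76%, against 7.62% (adjusted exact p = 0.186). With summits within 250 bp of both starts, the DRE (7.69% against 5.39%), TATAAA (48.3% against 41.2%) and GAGAG (12.7% against 18%) kept their direction without passing the threshold.

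Base composition moved with these results: GC content within 100 bp either side of the summit was 31.9% ± 6.04 in members and 34.7% ± 7.53 in other promoter peaks (SD over 642 and 1102 peaks), and its part in the motif differences was not tested. Distance to a start differed too, in part through the rule. The median summit was 99 bp upstream of the nearest start in members and 175 bp in other promoter peaks. In the 87 members with a DRE within 150 bp of the summit, it was a median of 29.5 bp from the nearest start. The part of this distance in the motif differences was not tested.

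The motif matches closest to the summit fell at different places within the promoter. Only that match was measured in each member, for both distances. For motifs with several matches this choice itself favours positions near the summit, and its part in the differences was not tested. When windows of 150 bp either side of the summit were searched, TTAAAA was a median of 35.5 bp from the summit and 105.5 bp from the nearest start, and TATAAA 45.5 bp from the summit and 109.5 bp from the nearest start. The DRE lay a median of 94.5 bp from the summit and 29.5 bp from the nearest start, with 71.3% of the 87 members holding it within 50 bp of a start. The Motif 1 core was 116 bp from the summit and 23.5 bp from a start, and CAGCTG 106.5 bp and 28.5 bp. The intervals of fws/Lamtor3 and Tsf2/CG34242 printed above have this arrangement. Within 50 bp of the summit, 285 members (44.4%) held TTAAAA and 196 (30.5%) held TATAAA, while 9 held the DRE, 9 CAGGTG and 3 the Motif 1 core. A match is a string of letters and was not tested as a bound site.

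Divergent promoters with a peak were then set against those without, in windows of 100 bp either side of the midpoint of the closest starts, which the peak does not place. Pairs that share a gene or a start are counted separately, and 237 genes were in more than 1 pair. The repeated histone gene pairs on 2L, all without a peak, are also counted one by one. The tests treat these pairs as independent, which they are not, so the p-values are only a guide. TTAAAA was in 65.7% of the 668 pairs with a peak, against 50.8% of the 1999 pairs without and 54.6% of all pairs (adjusted p = 3.54e-10, Fisher's exact test, two-sided, Benjamini-Hochberg over 18 tests). TATAAA was in 47.0%, against 37.4% (adjusted exact p = 8.42e-05) and 39.8% of all pairs. The Motif 1 core was in 3.44%, against 6.05% (adjusted exact p = 0.0197) and 5.4% of all pairs. ACAGTG was in 12.7%, against 9.61% (adjusted exact p = 0.0454) and 10.4% of all pairs, the opposite direction to its difference between members and other promoter peaks.

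The DRE (7.34% against 8.95%, adjusted p = 0.228), CAGCTG (11.2% against 13.2%, adjusted p = 0.228), CAGGTG (3.44% against 5.25%, adjusted p = 0.0823) and GAGAG (13.2% against 15.01%, adjusted p = 0.269) did not pass Fisher's exact test. They were in 8.55%, 12.7%, 4.80% and 14.5% of all pairs. Without replicate 1, the Motif 1 core (-1.48 points, adjusted p = 0.262) and ACAGTG (3.16 points, adjusted p = 0.0808) lost their calls in Fisher's exact test, and without replicate 2 ACAGTG did (3.06 points, adjusted p = 0.0799). GC content of the windows was 31.4% ± 7.04 in pairs with a peak and 34.9% ± 8.50 in pairs without (SD over 668 and 1999 pairs), and spacing differed too. Among pairs with starts 201 to 400 bp apart, TTAAAA differed by 7.76 points (adjusted p = 0.0342) and TATAAA by 6.04 points (adjusted p = 0.116, Fisher's exact test). The part of GC content was not tested. With summits within 250 bp of both starts, TATAAA lost its call as well (3.79 points, adjusted p = 0.23, Fisher's exact test). Over 11 alternatives ACAGTG lost its call in 9 and the Motif 1 core in 5, whereas TTAAAA kept its call in 11.

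Genes of the protein synthesis and transcription machinery were among those at member peaks. The groups were drawn up from gene symbols, mainly by pattern, so they can miss genes of the same function with other symbols. For each group the share of its divergent genes at a member peak is read beside the 25.1% of all genes in divergent pairs, as a description with no test. Cytoplasmic ribosomal protein genes had 21 of 55 (38.2%, 25.4 to 52.3) at a peak of median signal 133.0, led by RpL32 (478.1, with 247.8 in replicate 1 and 237.0 in replicate 2), RpS20 (304.6, with 150.9 and 151.5) and RpL34b (269.1, with 114.6 and 155.2). Mitochondrial ribosomal protein genes had 20 of 58 (34.5%, 22.5 to 48.1) with a median of 122.8, led by the mRpS10, mRpS23 and mRpL23 peaks described above. The interval of the mitochondrial group holds 25.1%, and that of the cytoplasmic group starts just above it.

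The groups for transcription had similar shares. Mediator, the complex that links transcription factors to RNA polymerase II, had 7 of 19 genes at a peak (36.8%, 16.3 to 61.6), with MED27 at 379.9, MED17 at 267.8 and MED30 at 239.1. RNA polymerase subunit genes had 7 of 20 (35.0%), with Polr2H at 409.4, Polr2B at 314.7 and Polr3E at 244.6. General transcription factor genes with Taf or TfII symbols had 5 of 17 (29.4%), with Taf5 at 426.4, TfIIA-L at 230.6 and Taf2 at 124.1. Ssl1, the TFIIH subunit named above, was not in this list. Aminoacyl-tRNA synthetase genes, whose enzymes charge transfer RNAs, had 8 of 23 (34.8%), with SerRS at 494.6, GluProRS at 466.3 and IleRS at 334.7.

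Other housekeeping groups lay nearer to or below the share of all genes. Respiratory chain and ATP synthase genes had 12 of 46 (26.1%), with ND-MWFE at 403.4, levy at 316.2 and ND-ASHI at 296.7. DNA replication genes, as listed by symbol, had 4 of 20, led by PolD2 at 734.2 (384.9 and 350.5 in the replicates). Next was Mcm2, which shares its promoter with RPA1, at 227.3. RPA1, replication protein A1, was not in this list, so the share does not cover all replication genes. Proteasome genes had 4 of 26 (15.4%, 4.36 to 34.9), with Rpn3 at 237.1, Rpn5 at 128.8 and Rpn13 at 127.2. Translation initiation factor genes had 3 of 21 (14.3%, 3.05 to 36.3), with eIF3h at 149.3, eIF1 at 145.6 and eIF3m at 86.9. Of the 10 groups with a peak, the intervals of all but the cytoplasmic ribosomal proteins contain 25.1%.

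Chemoreceptor, cuticle protein and developmental regulator genes are read beside the 36.2% of all protein-coding genes that were in divergent pairs, with no test. Of 179 chemoreceptor genes, 26 were in divergent pairs and 0 had a member peak, and of 117 cuticle protein genes, 12 were and 0 had one. A count of 0 allows a share of up to 11.5% of the 26 and up to 25% of the 12 (3 counts of the total), and the exact 95% intervals end at 13.2% and 26.5%, so a difference of the cuticle genes from all genes was not detectable at this number. Of 43 homeobox and segmentation regulators, 0 were in a divergent pair as defined here.

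**Figure D5:**
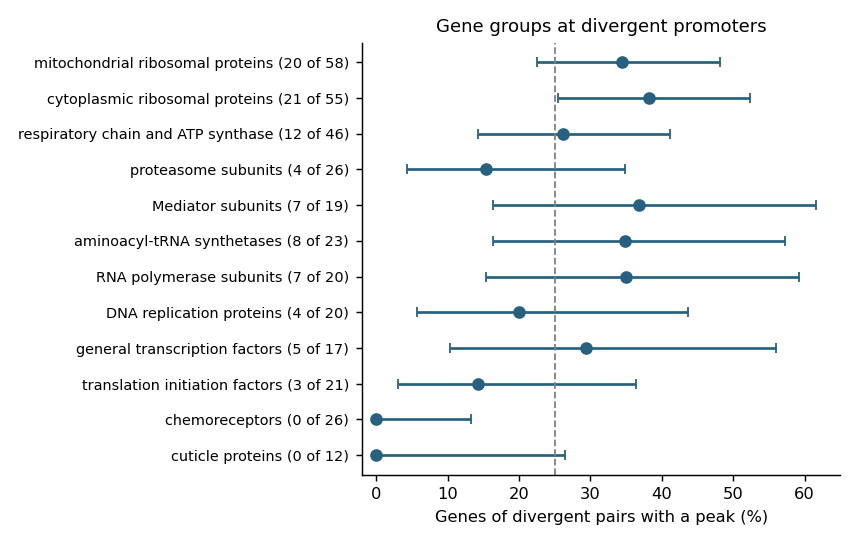
Share of each group's divergent genes that have a member peak (x axis, percent), with exact 95% binomial intervals and the counts behind them. The line marks the 25.1% of all genes in divergent pairs; the interval of the cytoplasmic ribosomal proteins starts at 25.4%, and the chemoreceptor and cuticle groups are at 0.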

How the data were processed

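Peaks were analysed from anti-GFP ChIP-seq of whole esg-GFP embryos in 1 group of 2 biological replicates. Per text notes deposited with the files, the peak positions refer to dm6, and alignments of the replicates and of a control were the input, selected by irreproducible discovery rate (IDR). Aligner and peak caller were not given in the sources used here. The signal value deposited by the authors for each peak has no stated unit and served to describe, rank and filter peaks within a list. The list named conservative was the main one. The 16 other columns of per-replicate values were not used. Read depth is unknown.

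Start sites were those of all protein-coding transcripts in Ensembl release 115 (BDGP 6.54), and sequence came from the RefSeq assembly of the same genome. Positions are 1-based. Where several pairs of starts qualified, the pair with the smallest summed distance to the summit was described. Counts over gene pairs used the closest starts of each pair for its spacing, and a member summit at any qualifying starts counted. Overlap with a replicate needed at least 1 bp. Shares have exact Clopper-Pearson 95% intervals and were compared by Fisher's exact test (two-sided), Benjamini-Hochberg adjusted over 18 tests with a threshold of 0.05. Genes named were the pairs of the 10 strongest members, the members and peaks at the limits of the rule, and up to 3 members of each of 13 gene groups at the strongest peaks. Chro/Ssl1, mRpL23/CG9004 and Fbw5/CG9147 were chosen from these for their summit position, and RPA1 as the partner of Mcm2, after the values were seen. The intervals of fws/Lamtor3 and Tsf2/CG34242 were chosen for their motifs, outside that rule. Members, gene groups and motifs were chosen with earlier results of these data known. Alternatives were the other joint list, each replicate alone, other distances, start sites, overlaps, motif windows and signal limits. Scripts were checked on simulated data. Software was scipy 1.17.1 and statsmodels 0.14.6 for tests, matplotlib 3.10.9 for plots, and Python 3.11.15 with pandas 2.3.3 and numpy 2.4.6 for tables.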

Additional observations from a re-analysis of the deposited data

How the results depend on the processing

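Most results kept their direction and their side of the threshold. The main exceptions follow. Stricter settings leave fewer peaks, and the cause of these changes was not tested. The number of members was 416 with summits within 250 bp of both starts and 412 in the upper 50% of the list by signal. The share of divergent pairs with a peak (25.05%) ranged from 20.2% to 21.3% with 1 replicate left out, and was 22.4% with the other joint list, 17.2% within 250 bp, 30.2% for starts at most 500 bp apart and 16.9% in the upper 50%. The share of summits between the starts was 79.9% with gene 5' ends in place of all transcript starts. The difference in overlap with both replicates (7.57 points) was 4.6 points with the other joint list and 0.403 in the upper 50%, both past no threshold, and 14.1 within 250 bp. The difference in the share of the strongest 20% of the list (5.63 points) ranged from 0.263 to 2.91 points with 1 replicate left out, and was 4.8 with the other list, 5.42 with gene 5' ends and 4.28 against other promoter peaks upstream of their start only, and it lost its call in each of these. Within 250 bp it was 10.4 points and kept its call. The number of motifs that differed from other promoter peaks (5) was 2 within 250 bp and 2 in windows of 50 bp. Between pairs with and without a peak (4 motifs) it ranged from 2 to 3 with 1 replicate left out, and was 1 within 250 bp and 1 for starts 201 to 400 bp apart. TTAAAA kept its direction and call in every alternative run for either comparison.

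Single motifs lost their call in 24 combinations of motif and alternative and gained one in 11. Against other promoter peaks, ACAGTG lost its call with gene 5' ends (-4.27 points, adjusted p = 0.0714) and in windows of 50 bp (-2.5 points, adjusted p = 0.0667, Fisher's exact test). CAGCTG gained one for starts at most 500 bp apart (3.44 points, adjusted p = 0.023) and the Motif 1 core without replicate 2 (1.68 points, adjusted p = 0.0459, Fisher's exact test). Between pairs, the DRE was called lower at pairs with a peak for starts at most 500 bp apart (-4.06 points, adjusted p = 0.0129), in the upper 50% (-3.35 points, adjusted p = 0.0463) and in windows of 50 bp (-2.91 points, adjusted p = 0.00802, Fisher's exact test). CAGCTG was called lower there for starts at most 500 bp apart (-4.24 points, adjusted p = 0.0235), and GAGAG in windows of 50 bp (-3.26 points, adjusted p = 0.0197, Fisher's exact test).

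Directions reversed for motifs that had not been called. Against other promoter peaks, the Motif 1 core differed by -0.259 points in windows of 50 bp, and CAGGTG by -0.504 points in windows of 50 bp and -0.093 in windows of 150 bp. Between pairs, the DRE differed by 1.76 points in windows of 150 bp and 2.29 for starts 201 to 400 bp apart, and CAGCTG by 0.18 points in the upper 50% and 4.44 in windows of 150 bp, the last with an adjusted p of 0.0189 in Fisher's exact test. Omission of peaks of signal under 20, the 201 to 400 bp range, the upstream-only comparison and omission of the strongest 20% were chosen after seeing the data. No paired analysis was possible because the samples form 1 group. With 2 replicates and no counts, depth and spread between embryos cannot be estimated.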
